A study of Mus musculus with 15 samples.

Results

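The expressed zinc finger genes named Zfp were described in the cortex of aged mice that carry an error-prone ribosome. Members were the genes whose GRCm38 symbol is Zfp followed by a number and at most 1 letter, and whose mean over all 15 libraries was at least 5 CPM (a gene's counts over the library total, scaled to 1000000). Zfp598 and the 23 Zfp genes on chromosome 7 that start under position 14000000 were left out by name and position. Of 392 such symbols among the 22524 genes counted, 368 were eligible and 244 reached the level. The genes were thus chosen by their mean level over both genotypes, and the difference between genotypes was not part of this rule. The members were, however, chosen with earlier results of these data known, so the choice was not blind to the data.

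Total RNA was sequenced from 7 mice heterozygous for Rps9 D95N (Rps9 D95N/WT) and from 8 wild-type littermates (Rps9 WT/WT), written D95N and WT here. Means are given ± SD over 7 D95N and 8 WT mice, and log2 fold changes ± SE. All 15 were female C57BL/6 mice aged 18 months, and each library came from a different animal number, so the replicates are separate mice. Rps9 is a ribosomal protein near the decoding centre of the small subunit, and D95N is a substitution that raises mistakes in reading the messenger RNA. Counts of Rps9 cannot show a substitution, so the genotype labels could not be checked from these counts.

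The series' design text names the brain cortex as the tissue, while a sample field names skeletal muscle. Summed neuronal markers reached 7638 to 8083 CPM in D95N and 7753 to 8224 CPM in WT libraries, against 5.92 to 9.23 CPM in D95N and 6.51 to 26.4 CPM in WT libraries for skeletal muscle markers. Library totals ran between 23349381 and 34052037 counts in D95N and between 28007441 and 34587082 counts in WT mice. Blood markers summed to 36 to 148 CPM in D95N and 73.6 to 286 CPM in WT libraries, and all 5 were lower in D95N. Of 8 meningeal markers 4 were lower in D95N, and their sums ran from 75.9 to 156 CPM in D95N and from 139 to 190 CPM in WT libraries. Of 5 astrocyte markers 2 were lower and none higher, with sums of 2986 to 3801 CPM in D95N and 3507 to 3698 CPM in WT libraries. Striatal markers, 4 of 8 lower, summed to 659 to 1426 CPM in D95N and 787 to 1214 CPM in WT libraries. No marker of these lists was at 0 in every library. Among the Zfp genes 2 D95N libraries stood apart: mouse 28 had the lowest levels, and mouse 42 lay among the WT mice.

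Zinc finger proteins of the C2H2 kind fold short loops around a zinc ion, held by a pair of cysteines and a pair of histidines, and strings of such fingers read DNA sequence. In many of them an N-terminal KRAB box recruits the corepressor Trim28 (KAP1), which brings the histone methyltransferase Setdb1, HP1 proteins and the NuRD complex and so forms heterochromatin. KRAB zinc finger genes lie in clusters made by repeated duplication, and many of their proteins silence retrotransposons. Zfp genes without the box include transcription factors of neural development, RNA-binding proteins and ribosome assembly factors.

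The 244 genes held 125 with a KRAB box, found with a profile in the proteins translated from GENCODE M21, and 119 without. KRAB proteins carried a median of 12 fingers (range 2 to 33) and the others a median of 7 (range 0 to 36). In 5 proteins, those of Zfp330, Zfp365, Zfp503, Zfp703 and Zfp839, no stretch matched the C2H2 spacing searched for. The genes lay on 20 chromosomes, with 48 on chromosome 7, 27 on chromosome 17 and 20 on chromosome 8.

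Mean levels over all libraries ran from 5.16 to 544 CPM, with a median of 18.4 CPM. Zfp365, which encodes DBZ, a protein that binds Disc1, had the highest level, at 544 CPM or 105 CPM per kb of exon. Zfp106, which encodes an RNA-binding protein needed by motor neurons, followed at 260 CPM or 24.9 CPM per kb, Zfp706 at 180 CPM or 36.1 CPM per kb, Zfp91 at 159 CPM or 15.8 CPM per kb, and Zfp148 at 115 CPM or 11.1 CPM per kb. Just inside the level used to choose members were Zfp689 (5.16 CPM), Zfp472 (5.3 CPM) and Zfp619 (5.34 CPM), and just outside it Zfp52 (4.99 CPM), Zfp273 (4.94 CPM) and Zfp708 (4.85 CPM). All 244 genes passed the filter on low counts, and the lowest count of any of them in any library was 90.

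More Zfp genes were lower than higher in D95N cortex. In edgeR's quasi-likelihood test over 14989 genes, at a Benjamini-Hochberg adjusted p under 0.05, 38 of 244 fell and 8 rose, against a background of 11.6% of all tested genes lower and 15.2% higher. That is 15.6% of the Zfp genes lower and 3.28% higher, and 18.9% called in either direction beside 26.8% of all tested genes. Among all tested genes of mean CPM 5 or more, 29.8% were called, 12.8% lower and 17.0% higher. The share of lower Zfp genes was thus slightly above the background, and the share of higher ones below it. The log2 fold change, D95N over WT, had a median of -0.07 over the Zfp genes and -0.01 over all tested genes. It was negative in 167 of 244 Zfp genes (68.4%), against 51.9% of all tested genes. Changes were small: the quartiles were -0.15 and 0.02, and the genes that fell had a median fold of 0.870. In bulk tissue fewer cells of a type and less RNA per cell cannot be told apart. Scores of blood and meningeal markers were the mean of log2(CPM + 0.5) over each list. With both scores in the model no Zfp gene passed the edgeR test (lowest adjusted p = 0.293). Of all 14989 tested genes 3 were then higher and 3 lower (0.04%). In that model 16 Zfp genes had an unadjusted p under 0.05, the median log2 fold change of the Zfp genes turned to 0.012, and 104 of the 244 were negative.

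**Figure D1:**
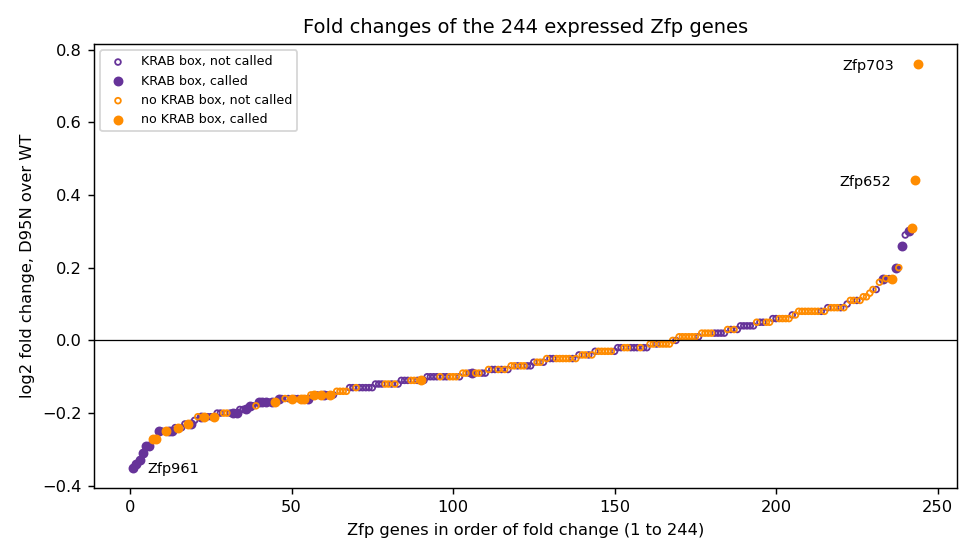
Log2 fold change, D95N over WT, of each of the 244 expressed Zfp genes in order, with KRAB genes in purple, the others in orange and genes past the edgeR threshold filled. Zfp703 stands at 0.76 and Zfp652 at 0.44 at the right end, and the left end is at -0.35 (Zfp961).

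The largest increase was in Zfp703, at chromosome 8, 26977325 to 26981461 (GRCm38, plus strand). Its protein belongs, with that of Zfp503, to a small family of transcriptional corepressors, and the human gene ZNF703 is known for amplification in breast cancer. Zfp703 had 48.8 CPM in the lowest, 65.3 CPM in the median and 104 CPM in the highest D95N library, against 37.7, 42.1 and 43.6 CPM in WT libraries. Every D95N library lay above every WT library, with mice 41 and 42 the lowest of the D95N mice and mouse 50 the highest. The log2 fold change was 0.76 ± 0.12 (SE), a fold of 1.69 (edgeR adjusted p = 0.000644). Its family partner Zfp503, known for its role in striatal neuron development, averaged 10.5 ± 1.54 CPM in D95N and 11.4 ± 1.47 CPM in WT mice (SD, n = 7 and 8; edgeR adjusted p = 0.359). Among the exonic bases of Zfp703, 13.5% lie under a gene on the opposite strand (Gm45371), and it is not known whether the counting used strand.

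Zfp652, whose human counterpart ZNF652 is a repressor that acts with the corepressor CBFA2T3, was also higher in every D95N library. It had 96.6, 114 and 142 CPM as the lowest, median and highest D95N values and 83.3, 88.6 and 90.8 CPM in WT mice. The groups did not overlap, and mice 41 and 42 were again the lowest of the D95N mice. On the log2 scale it rose by 0.44 ± 0.07 (SE; adjusted p = 0.000719 in edgeR). Other genes cover 20% of its exonic bases, on both strands.

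Zfp382, a KRAB gene whose human counterpart is studied as a repressor of tumour growth, was the third gene whose groups did not overlap. Its lowest, median and highest levels were 5.85, 6.23 and 6.96 CPM in D95N and 4.23, 5.04 and 5.78 CPM in WT mice. It rose by 0.30 ± 0.07 on the log2 scale (SE; adjusted p = 0.00644 in edgeR). Over all tested genes 1.81% had every D95N library above every WT library and 1.47% had every one below, beside 3 and 2 of the 244 Zfp genes.

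Of the other 5 genes that rose, Zfp771, without a KRAB box, averaged 33.1 ± 5.04 CPM in D95N and 26.6 ± 1.34 CPM in WT mice (log2 fold change 0.31 ± 0.08 SE, edgeR adjusted p = 0.00654). The D95N libraries of mice 4 and 41 lay within the WT range of 24.4 to 28.3 CPM. Zfp771 lost its call in 3 of 24 alternative settings. These were GC and length offsets, blood and meningeal marker scores, and oligodendrocyte and striatal marker scores. The KRAB gene Zfp7 averaged 7.89 ± 0.736 CPM in D95N and 6.61 ± 0.34 CPM in WT mice (0.26 ± 0.06, adjusted p = 0.00795). Only mouse 50, at 6.51 CPM, lay within the WT range, and 14.2% of the exonic bases of Zfp7 are shared with Gm49527 on the same strand. Zfp334 (KRAB), Zfp574 (no KRAB box) and Zfp37 (KRAB) rose by 0.20, 0.17 and 0.17 on the log2 scale (edgeR adjusted p = 0.00421, 0.00604 and 0.0435). Zfp37 averaged 28.6 ± 3.0 CPM in D95N and 25.4 ± 1.39 CPM in WT mice, and lost its call in 16 of 24 alternative settings.

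**Figure D2:**
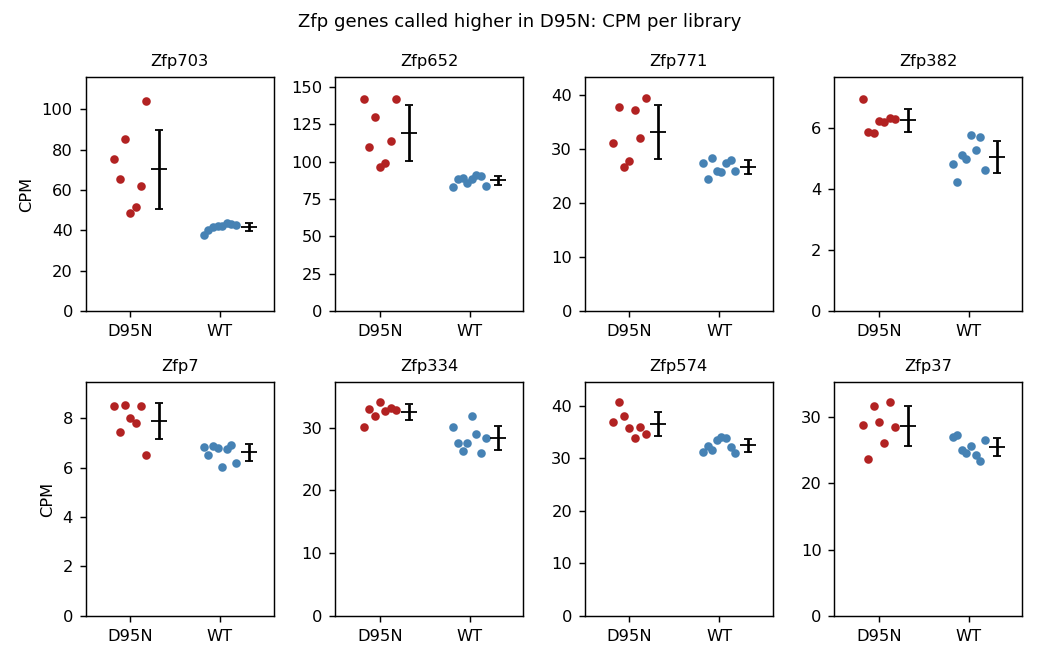
CPM per library of the 8 Zfp genes higher in D95N (red, 7 mice) than in WT (blue, 8 mice), with mean and SD to the right of each group. The groups are apart in Zfp703, Zfp652 and Zfp382 and overlap in the other 5, and the D95N values of Zfp703 spread from 48.8 to 104 CPM.

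The largest decrease was in Zfp961, a KRAB gene with 11 fingers at chromosome 8, 71951038 to 71993792. It had 7.98, 10.2 and 11.3 CPM as the lowest, median and highest D95N values, against 11.5, 12.7 and 13.8 CPM in WT mice. The groups did not overlap, and mouse 28 was the lowest. The log2 fold change was -0.35 ± 0.07 (SE), a fold of 0.785 (edgeR adjusted p = 0.00199). Zfp60, also a KRAB gene, was the other gene whose groups did not overlap, with 34.9 to 43.7 CPM in D95N and 44 to 48.8 CPM in WT mice (log2 fold change -0.15 ± 0.05 SE, adjusted p = 0.0261).

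KRAB genes made up 9 of the 12 largest decreases. Zfp946, on chromosome 17, had 10.2, 11.6 and 15.9 CPM as the lowest, median and highest D95N values and 14.1, 15.3 and 17.1 CPM in WT mice (-0.33 ± 0.08, edgeR adjusted p = 0.00469). Mouse 42, at 15.9 CPM, was the one D95N library inside the WT range. Zfp760 averaged 7.84 ± 1.49 CPM in D95N and 9.96 ± 0.948 CPM in WT mice (-0.34 ± 0.10, adjusted p = 0.0193). Zfp619, whose protein carries 33 fingers, averaged 4.72 ± 0.677 CPM in D95N and 5.87 ± 0.407 CPM in WT mice (-0.31 ± 0.09, adjusted p = 0.014), with 5 of 7 D95N mice below all WT mice. The KRAB genes Zfp867, Zfp846, Zfp870, Zfp617 and Zfp945 had log2 fold changes between -0.29 and -0.25. Of these, Zfp945 had 14 to 23.1 CPM in D95N mice, with mouse 42 above every WT mouse, and 19.8 to 22.0 CPM in WT mice (edgeR adjusted p = 0.0396). Of 24 alternative settings, Zfp945 lost its call in 12 and changed sign in 1 more, and Zfp867 lost its call in 13.

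The other 3 of the 12 have no KRAB box. Zfp467, a regulator of the choice between fat and bone cells, had 16.6, 20.1 and 23.6 CPM as the lowest, median and highest D95N values and 22.4, 24.7 and 26.3 CPM in WT mice (-0.27 ± 0.07, edgeR adjusted p = 0.00717). Mice 41 and 42 lay within the WT range. Zfp395, whose human counterpart binds the promoter of the huntingtin gene, averaged 11.8 ± 1.66 CPM in D95N and 14.2 ± 0.88 CPM in WT mice (-0.27 ± 0.08, adjusted p = 0.0141). Zfp521, a factor that promotes neural fate and has 27 fingers, averaged 13.1 ± 1.91 CPM in D95N and 15.6 ± 1.11 CPM in WT mice (-0.25 ± 0.08, adjusted p = 0.0227). Mouse 42 had the highest D95N level of Zfp521, at 16.7 CPM.

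**Figure D3:**
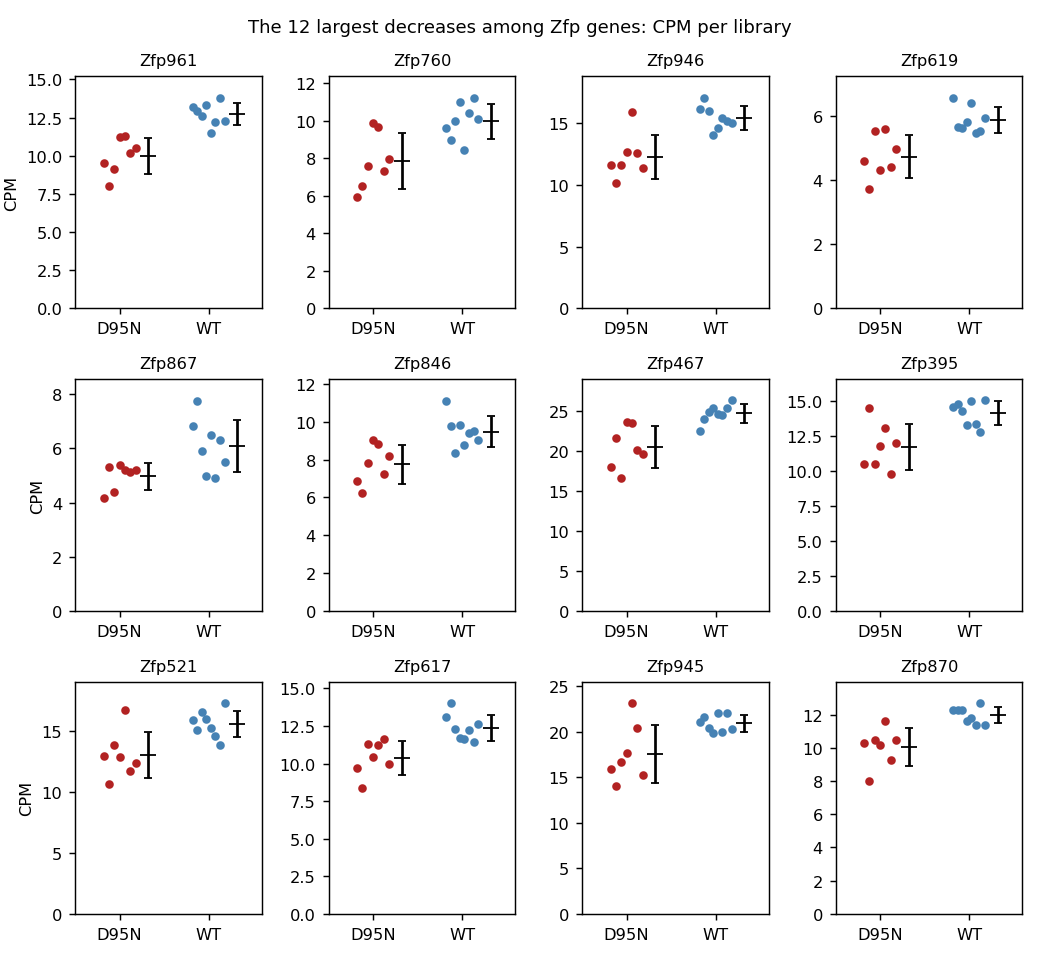
CPM per library of the 12 Zfp genes with the largest decreases, D95N in red (7 mice) and WT in blue (8 mice), with mean and SD beside each group. Zfp961 has no overlap, from 7.98 to 11.3 CPM in D95N and from 11.5 to 13.8 CPM in WT mice, and in the other 11 panels at least 1 D95N mouse lies within the WT range.

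Decreases were more frequent among KRAB genes. Of 125 KRAB genes 23 fell (18.4%) and 4 rose, with a median log2 fold change of -0.10 and 95 negative (76.0%). Of 119 genes without the box 15 fell (12.6%) and 4 rose, with a median of -0.03 and 72 negative (60.5%). Among all tested genes of mean CPM 5 or more, 12.8% were lower and 17.0% higher, and 50.5% were negative. The difference between both kinds was not tested. KRAB genes also had a lower GC content in their transcripts (median 42.5%, against 48.8% in the others) and a lower level (median 13.9 CPM, against 25 CPM). By number of fingers the median log2 fold change was -0.04 for 0 to 4 and for 5 to 9 fingers, -0.10 for 10 to 14 and -0.08 for 15 or more. In the last class 10 of 50 genes fell and 2 rose.

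GC content moved with the fold change in the whole table. Among all tested genes of mean CPM 5 or more, 19% of those with a GC content under 45% were lower and 7.77% higher, against 10.8% lower and 20.1% higher at 45% or more. Of the Zfp genes with a GC content under 45%, 25 of 125 fell and 1 rose, with a median of -0.10, beside -0.05 over all genes of that GC content. At 45% or more, 13 of 119 Zfp genes fell and 7 rose, with a median of -0.02. Within the lower GC class the median was -0.11 over 87 KRAB genes and -0.06 over 38 others. In that class 20.7% of the KRAB genes and 18.4% of the others were lower, beside 19% of all genes. Higher were 1.15% and 0.0%, beside 7.77%. With GC and length offsets fitted per library, 37 Zfp genes were lower and 20 higher, beside 28.9% of all genes called, 12.6% lower and 16.3% higher, and 34 of the 46 first called kept their call. The median then was -0.04 over all Zfp genes, -0.05 over KRAB genes and -0.03 over the others.

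**Figure D4:**
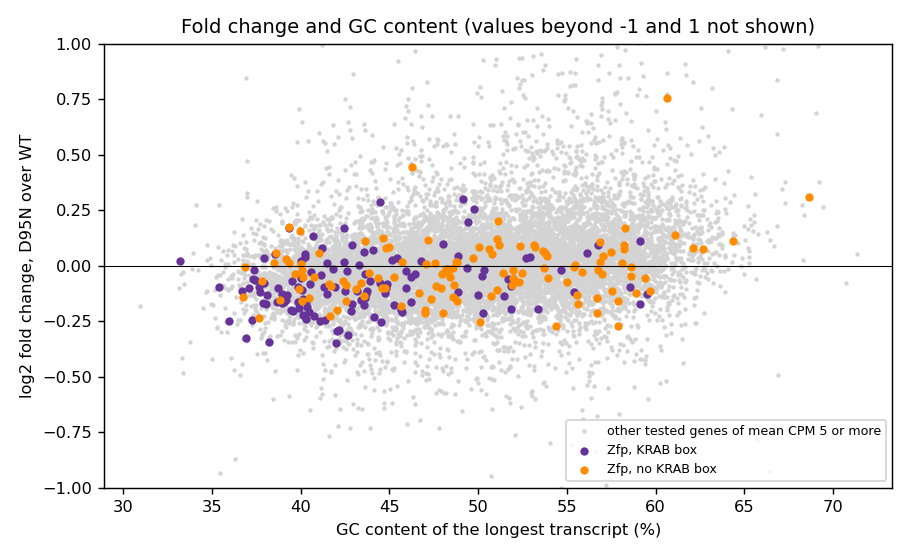
Log2 fold change, D95N over WT, against GC content of the longest transcript for KRAB genes (purple), other Zfp genes (orange) and the other tested genes of mean CPM 5 or more (grey). KRAB genes gather at low GC content (median 42.5%) and mostly below 0, and Zfp703 is the highest orange point.

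The decrease was not equal across the D95N mice. Relative to the WT mean, the median log2 difference over the Zfp genes was -0.174 in mouse 28, between -0.084 and -0.038 in mice 4, 21, 41, 44 and 50, and 0.036 in mouse 42. WT mice ran from -0.026 to 0.041. Over KRAB genes mouse 28 was at -0.28, mouse 21 at -0.124 and mouse 42 at 0.031, while WT mice ran from -0.036 to 0.063. Of the 46 genes called, mouse 42 had 31 within the WT range and mouse 21 had 2. Without mouse 28 the counts were 31 lower and 15 higher, with a median of -0.044. Without mouse 42 they were 65 lower and 12 higher, and without mouse 21 they were 23 lower and 7 higher. The calls over all tested genes moved too. Without mice 28, 42 and 21 they were 26.1%, 33.1% and 21.7% (1710, 2282 and 1305 genes lower), against 26.8% (1744 lower) with every mouse. D95N mice also varied more among themselves: the median SD of log2 CPM over the Zfp genes was 0.132 in D95N and 0.0803 in WT mice. The SD was larger in D95N in 208 genes (85.2%), beside 83.0% of all tested genes and 87.0% of those of mean CPM 5 or more.

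**Figure D5:**
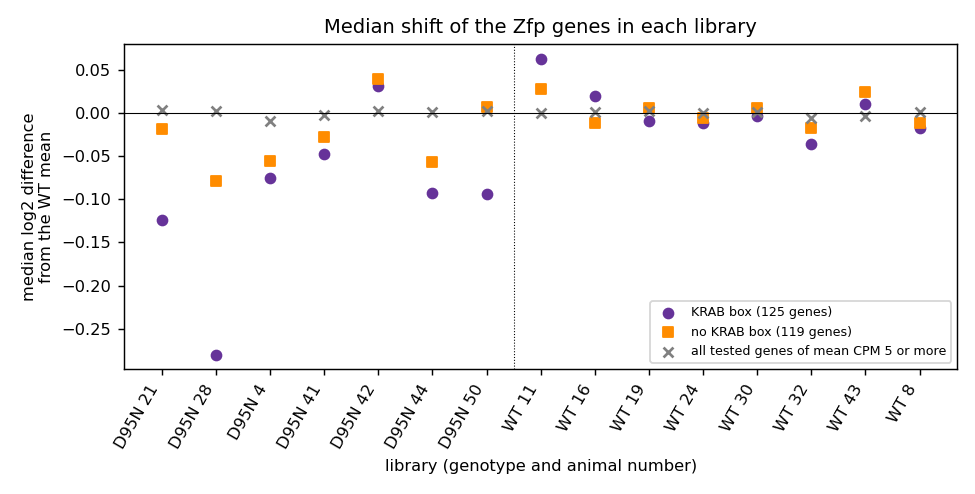
Median log2 difference from the WT mean in each library (7 D95N mice on the left, 8 WT mice on the right) for KRAB genes, other Zfp genes and all tested genes of mean CPM 5 or more. KRAB genes are at -0.28 in mouse 28 and 0.031 in mouse 42. The grey crosses stay near 0 in every library, where the scaling of the libraries (TMM) tends to place them.

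Many Zfp genes are neighbours: 107 of the 244 lay within 100 kb of another, in 134 pairs, and in 94 pairs both fold changes had the same sign. As 68.4% of the Zfp genes were negative, distant pairs would often share a sign as well. Neighbours were not compared with distant pairs. Both genes were called in 6 pairs, and in 4 of them both fell. Zfp617 and Zfp961 lie 16408 bp apart on chromosome 8. Zfp617 had 8.39, 10.4 and 11.6 CPM as the lowest, median and highest D95N values and 11.4, 12.2 and 14 CPM in WT mice (-0.25 ± 0.07, edgeR adjusted p = 0.0126), beside the -0.35 of Zfp961. On chromosome 9 Zfp26 (-0.16), Zfp426 (-0.18) and Zfp846 (-0.29) were all called lower, with gaps of 8386 and 88544 bp. Of 24 alternative settings, Zfp426 lost its call in 14 and changed sign in 1 more, and Zfp26 lost its call in 8. Zfp607b (-0.17) and Zfp60 (-0.15) lie 24904 bp apart on chromosome 7, and they lost their calls in 14 and 4 of the 24 settings. In these 4 pairs mouse 28 had the lowest D95N level of all 7 genes.

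In the other 2 pairs the neighbours moved in opposite directions. Zfp260, which has no KRAB box and is known as a cofactor of GATA4 in the heart, lies 14319 bp before Zfp382 on the same strand of chromosome 7. Zfp260 had 56.7, 69.0 and 82.7 CPM as the lowest, median and highest D95N values and 76.5, 79.2 and 88.0 CPM in WT mice, and 6 of 7 D95N mice lay below every WT mouse. It fell by 0.23 on the log2 scale, while Zfp382 rose by 0.30 (edgeR adjusted p = 0.0168 and 0.00644). The KRAB genes Zfp251 and Zfp7, on opposite strands of chromosome 15 with a gap of 7823 bp, had log2 fold changes of -0.09 and 0.26. Zfp251 averaged 47.7 ± 1.64 CPM in D95N and 50.8 ± 1.73 CPM in WT mice (adjusted p = 0.0467), and lost its call in 16 of 24 alternative settings.

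The promoters of 2 of these pairs are shown because one pair moved apart and the other fell together. Each is the 250 bases before the RefSeq start (GRCm38.p6, plus strand), and capitals mark matches on either strand to the motifs searched, which here were GGGCGG (the core of SP sites) and CCGGAAG (the core of ETS sites). The regions are chr7:30121682-30121931 for Zfp382, chr7:30094826-30095075 for Zfp260, chr8:71950816-71951065 for Zfp961 and chr8:71922575-71922824 for Zfp617.
Zfp382: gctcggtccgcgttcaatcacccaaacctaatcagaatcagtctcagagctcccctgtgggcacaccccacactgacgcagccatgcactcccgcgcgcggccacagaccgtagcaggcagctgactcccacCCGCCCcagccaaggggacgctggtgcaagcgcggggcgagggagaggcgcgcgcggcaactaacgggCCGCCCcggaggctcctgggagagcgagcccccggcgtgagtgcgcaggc
Zfp260: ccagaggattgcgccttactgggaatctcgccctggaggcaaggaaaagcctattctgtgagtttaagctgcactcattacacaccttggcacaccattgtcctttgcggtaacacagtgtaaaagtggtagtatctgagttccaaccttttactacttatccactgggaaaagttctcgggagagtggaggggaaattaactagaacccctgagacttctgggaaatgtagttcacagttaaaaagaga
Zfp961: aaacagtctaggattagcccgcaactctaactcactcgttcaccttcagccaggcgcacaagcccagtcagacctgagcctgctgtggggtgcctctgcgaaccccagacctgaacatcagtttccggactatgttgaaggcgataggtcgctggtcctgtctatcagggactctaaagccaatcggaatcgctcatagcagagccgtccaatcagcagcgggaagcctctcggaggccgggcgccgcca
Zfp617: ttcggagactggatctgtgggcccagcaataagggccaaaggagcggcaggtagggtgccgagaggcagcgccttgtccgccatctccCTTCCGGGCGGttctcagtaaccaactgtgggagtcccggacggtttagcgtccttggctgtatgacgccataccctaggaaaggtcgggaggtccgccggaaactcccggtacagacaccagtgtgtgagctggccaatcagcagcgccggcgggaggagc
The Zfp382 window held 25 CpG, had a GC content of 70.0% and matched the SP core at 2 places. The Zfp260 window held 4 CpG, had a GC content of 45.6% and matched none of the 5 motifs. Zfp961 (15 CpG) matched none either, and in Zfp617 (18 CpG) an ETS core and an SP core overlap. The RefSeq start of Zfp617 lies 14190 bp from the GENCODE start of the gene, and that of Zfp260 299 bp, which is more than the 250 bases shown. The starts of Zfp382 and Zfp961 differ by 10 and 28 bp.

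RefSeq promoters were found for 197 of the 244 genes. The ETS core CCGGAAG was in 13.7% of these windows, against 7.05% of all 27025 promoters, and the SP core GGGCGG in 42.6%, against 32.9%. The YY1 core AAGATGGC was in 2.54% against 1.59%, the CRE TGACGTCA in 3.05% against 1.62%, and the TATA box TATAAA in 5.58% against 13%. Zfp windows held a median of 13 CpG and all windows a median of 6. Of the genes that fell, 30 had a window, and 23.3% of these held the ETS core. Of the genes that rose, 5 had a window, and none held it. These matches describe letters in the window, and their relation to the fold changes was not tested.

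Among Zfp genes of the nervous system, 3 of 13 tested genes fell and none rose, with a median of -0.05. That is 23.1% called, all of them lower, beside 26.8% of all tested genes called, 11.6% lower and 15.2% higher. Zfp462, a chromatin-associated factor whose human counterpart is mutated in a developmental disorder, had 37.9, 42 and 51.3 CPM as the lowest, median and highest D95N values and averaged 42.9 ± 4.58 CPM in D95N and 49.7 ± 2.02 CPM in WT mice (-0.21 ± 0.06, edgeR adjusted p = 0.00948). Mouse 42 was the one D95N mouse inside the WT range. Zfp292, linked in humans to intellectual disability, averaged 49.8 ± 3.89 CPM in D95N and 55.1 ± 1.79 CPM in WT mice (-0.15 ± 0.04, adjusted p = 0.0226). Zfp521 was the third. Zfp189, known for its part in stress resilience in the prefrontal cortex, averaged 17.1 ± 3.94 CPM in D95N and 14 ± 1.42 CPM in WT mice (0.29 ± 0.12, adjusted p = 0.0757), and its D95N values spread from 11.6 to 22.1 CPM. Zfp365 averaged 547 ± 32.1 CPM in D95N and 543 ± 10.6 CPM in WT mice (adjusted p = 0.841). Zfp804a, the counterpart of a human schizophrenia risk gene, had a log2 fold change of 0.02 ± 0.08.

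Zfp622 and Zfp593 were the genes listed for ribosome assembly, where their yeast counterparts act on the large subunit. Zfp622 averaged 45.5 ± 4.8 CPM in D95N and 42.1 ± 1.28 CPM in WT mice (0.11 ± 0.05, edgeR adjusted p = 0.125). Mouse 28, at 55.9 CPM, was its highest library. Zfp593 averaged 9.47 ± 1.12 CPM in D95N and 8.76 ± 0.648 CPM in WT mice (0.11 ± 0.07, adjusted p = 0.284). None of 7 tested Zfp genes for RNA-binding proteins passed the test in edgeR (1 had an unadjusted p under 0.05), and the 6 of them among the 244 did not pass in DESeq2 or limma-voom either. Zfp830, a splicing factor, came closest (-0.14 ± 0.05, adjusted p = 0.0535). It was called lower in 4 of 24 alternative settings: upper-quartile factors, library totals only, without D95N mouse 42 and without WT mouse 30. Zfp106 averaged 260 ± 15.9 CPM in D95N and 259 ± 7.06 CPM in WT mice.

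Zfp genes for silencing of retroelements or imprinted genes were 25% called, beside 26.8% of all tested genes (11.6% lower and 15.2% higher). Of the 8 tested, 2 fell and none rose. One was Zfp961. The other was Zfp57, which protects methylation marks at imprinted loci and was too low to be among the 244. It averaged 2.99 ± 0.788 CPM in D95N and 4.34 ± 0.34 CPM in WT mice (-0.54 ± 0.14, edgeR adjusted p = 0.00792), and 5 of 7 D95N mice lay below every WT mouse. Zfp445, which acts beside Zfp57 at imprinted loci, averaged 56.1 ± 5.38 CPM in D95N and 56.0 ± 2.72 CPM in WT mice (adjusted p = 0.962). Zfp809, known for silencing of murine leukaemia virus sequences, had a log2 fold change of 0.03 ± 0.11, and Zfp932, which represses retroelements in embryonic stem cells, one of -0.06 ± 0.08. Of 11 listed chromatin and general regulators Zfp148 alone was called, and it fell (9.09%, beside 26.8% of all tested genes called and 11.6% lower). This repressor and activator of GC-rich promoters averaged 110 ± 6.7 CPM in D95N and 119 ± 3.77 CPM in WT mice (adjusted p = 0.0459), and of 24 alternative settings it lost its call in 13 and changed sign in 1 more.

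Of 35 tested genes of the corepressor and heterochromatin complexes through which KRAB proteins act, 4 rose (11.4%) and 1 fell (2.86%), beside 15.2% higher and 11.6% lower over all tested genes. Their median log2 fold change was 0.01, and that of all tested genes -0.01. Trim28 itself had 114, 120 and 136 CPM as the lowest, median and highest D95N values and 118, 124 and 125 CPM in WT mice (0.01 ± 0.04, edgeR adjusted p = 0.867), and the groups overlapped. Trim28 starts at position 12999114 of chromosome 7, within the stretch from which Zfp genes were left out. Ehmt2, the histone H3 lysine methyltransferase G9a, averaged 217 ± 20.2 CPM in D95N and 188 ± 6.05 CPM in WT mice (0.21 ± 0.05, adjusted p = 0.00456). Hells, a remodeller that aids DNA methylation of repeats, averaged 4.3 ± 0.715 CPM in D95N and 3.28 ± 0.432 CPM in WT mice (0.39 ± 0.11, adjusted p = 0.0161). The histone-binding proteins of NuRD went opposite ways: Rbbp7 rose by 0.18 ± 0.05, and Rbbp4 fell, at 133 ± 2.91 CPM in D95N and 147 ± 6.79 CPM in WT mice (-0.15 ± 0.03, adjusted p = 0.00351). Mphosph8 of the HUSH complex, named after its value was seen, rose by 0.14 ± 0.04 (edgeR adjusted p = 0.0293). Fam208a and Pphln1 of the same complex, also named after their values were seen, were not called. Their log2 fold changes were -0.18 ± 0.08 and -0.0 ± 0.04 (adjusted p = 0.0838 and 0.967).

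Zfp genes below the level and other zinc finger families were set beside the 244. Of 124 eligible Zfp genes under 5 CPM, 89 passed the filter on low counts, with a median of -0.22. Of these, 16 were lower (18.0%) and 1 higher (1.12%), beside 11.6% lower and 15.2% higher over all tested genes. The share called was 19.1%, beside 26.8% of all tested genes. Among families of mean CPM 5 or more, the BTB factors named Zbtb had 7 of 36 lower and 2 higher (median -0.02), and the SCAN-domain and related genes named Zscan or Zkscan 2 of 18 lower and none higher (median -0.09). The CCCH genes named Zc3h, many of which bind RNA, had 5 of 16 lower and 3 higher (median -0.08). The palmitoyltransferase genes named Zdhhc had 2 of 20 lower and 5 higher (median 0.07). In either direction 25% of the Zbtb, 11.1% of the Zscan and Zkscan, 50% of the Zc3h and 35% of the Zdhhc genes were called, beside 29.8% of all tested genes of that level. These differences between families were not tested.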

How the data were processed

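RNA from 15 mice was sequenced with standard Illumina libraries after Trizol extraction, per the labels' protocols. The authors deposited whole-number counts per gene and library, made with STAR and featureCounts on GRCm38, per the submitters' processing notes. Versions, annotation, strand and the handling of multiply mapped reads were not given in the sources used here. Totals were 23349381 to 34587082 counts, and CPM are scaled by TMM, except in the level that chose the members and in the marker scores.

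Counts were tested in edgeR 4.0.16 (R 4.3.3) with filterByExpr, TMM and the quasi-likelihood F test on genotype. All 15 libraries were used, with Benjamini-Hochberg over 14989 genes and a threshold of 0.05. The script was also run on simulated counts in which each gene had the same dispersion in both genotypes. Such counts do not test the larger SD seen among D95N mice. SE is the log2 fold change over the root of F. Symbols, positions and GC content came from GENCODE M21 (22291 of 22524 rows matched). C2H2 fingers were a regular expression, and KRAB boxes a profile (pyhmmer 0.12.3, E under 0.001). Overlaps used exons, and copied coding sequence BLAST 2.17.0 (95% over 100 bases). Medians per library used log2(CPM + 0.5). Counts over lists are descriptions, without a set test. The members and lists were chosen with earlier results of these data known. Genes named were the called genes with the largest changes, up to 12 a direction, the 5 highest, those next to the level, listed role genes, the 4 called partners of smallest p, and called neighbours. Alternatives were other scalings, no filter, DESeq2 1.42.0, limma-voom 3.58.1, GC and length offsets, cell marker scores, other levels and leaving out each library. The alternative of genes with little overlap and no copies was chosen after seeing the data, as were repeats of the median.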

Additional observations from a re-analysis of the deposited data

Results flagged for a closer look

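Among 54 groups of values of 27 items, 1 had a sample far from the rest. In Zfp60 the D95N mouse 28 had 34.9 CPM, while the other 6 D95N mice had 42 to 43.7 CPM. Chance gives such a gap in about 1 of 20 groups.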

How the results depend on the processing

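Counts are given as higher and lower. Scores of blood and meningeal markers as covariates left 0 and 0 Zfp genes, 0 and 0 corepressor genes and 3 and 3 of all genes. The median then reversed to 0.012, as did Rbbp7 (-0.04), Zfp148 (0.01), Zfp292 (0.01), Zfp426 (0.03), Zfp760 (0.1) and Zfp945 (0.05). The median SE was 0.102, against 0.059 without the scores, and the cause was not tested. Scores of oligodendrocyte and striatal markers left 5 and 11 Zfp genes (14 of the 46 kept), 1 higher corepressor gene, and 954 and 606 of all genes. With library totals alone 62 Zfp genes were lower (all genes 1808 and 2537; 10.1% of called Zfp genes higher, against 17.4% with TMM), the median was -0.101 and 4 corepressor genes were lower. Upper-quartile scaling gave 4 lower corepressor genes, a median of -0.09, and 1926 and 2351 of all genes. GC and length offsets gave 20 higher Zfp genes, 35.1% of those called, a median of -0.038 and 2 lower corepressor genes. The median of all genes was -0.042 with totals and -0.008 with TMM. Zfp genes with at most 10% of exons overlapped and no copied coding sequence, 210 in number, had 5 higher and 34 lower. Leaving out 1 library in turn gave 7 to 15 higher and 23 to 65 lower Zfp genes, 2 to 5 higher and 1 to 3 lower corepressor genes, 1952 to 2695 and 1305 to 2282 of all genes, and medians of -0.08 to -0.044. The lowest and highest counts of lower Zfp genes came without D95N mice 21 and 42, and 15 higher without mouse 28. DESeq2 size factors, no filter, DESeq2 (9 and 45), limma-voom (9 and 40) and levels of 2 CPM (8 and 50 of 300) or 10 CPM (6 and 34 of 193) kept the direction of the counts. No paired analysis was possible because no label gives the litter, batch or date of a mouse. Counting error weighs most near the level, where the lowest count in a library was 90.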
